A study of Mus musculus with 63 samples.

Results

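The natriuretic peptide system was followed through 6 genes in mouse heart RNA: the peptide genes Nppa and Nppb, the activating protease Corin, and the receptor genes Npr1, Npr2 and Npr3. The genes were taken by symbol from the deposited count table, and all 6 were found among its 19220 genes and among the 16425 that passed the filter on low counts. The table holds 63 heart libraries of strains labelled 129, AJ, B6, NOD, NZO, PWK and WSB (8 libraries each) and Cast (7 libraries). All groups shared a high-fat, high-sugar diet labelled 45% fat, so there is no group on another diet to compare with. These are whole inbred strains with no engineered allele named in the labels. The labels give the tissue as heart without naming a chamber. Age and sex are not given in the labels used here.

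Natriuretic peptides are hormones of the heart. Heart muscle cells make the atrial peptide (from Nppa) and the B-type peptide (from Nppb) as longer precursors. The protease corin cuts the precursor of the atrial peptide. The peptides bind the receptor encoded by Npr1, which makes the messenger cGMP, while Npr2 encodes the cGMP-making receptor for the C-type peptide and Npr3 encodes a receptor that takes peptides out of circulation. In the adult heart Nppa is mainly an atrial transcript, and both peptide genes are widely used as readouts of wall stress in the ventricle.

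Nppa and Nppb lie beside each other on chromosome 4 of GRCm38. Nppb (ENSMUSG00000029019) spans 147985788 to 147987205 and Nppa (ENSMUSG00000041616) spans 148000722 to 148002079, both on the plus strand. The DNA before their starts is shown because the strains differed in these genes' RNA. It comes from RefSeq's promoter table (GRCm38.p6), which held 1 window for each of the 6 genes, and it is the reference sequence, which is that of B6. Capitals mark the letters searched for, on either strand: GATAA (the GATA factors' core), AAGTG (the NK2 factors' core), TCACACC (T-box), CATTCC (the TEAD factors' M-CAT element) and TATAAA. The Nppa stretch is the 250 bases before its start (chr4:148000472-148000721). The Nppb stretch is 30 bases (chr4:147985793-147985822), 107 to 78 bases before the RefSeq start, which lies 112 bases inside the gene model of the deposited annotation.
Nppa: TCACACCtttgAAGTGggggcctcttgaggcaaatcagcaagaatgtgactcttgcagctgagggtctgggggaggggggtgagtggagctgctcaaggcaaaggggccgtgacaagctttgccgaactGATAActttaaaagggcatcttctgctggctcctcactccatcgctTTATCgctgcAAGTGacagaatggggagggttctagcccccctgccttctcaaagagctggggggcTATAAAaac
Nppb: caGGAATGcagctGATAAatcagaGATAAc

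The Nppa stretch held 6 matches: 1 T-box, 2 NK2, 2 GATA (1 of them as TTATC, on the other strand) and 1 TATA. The Nppb stretch held 3: an M-CAT element (GGAATG, on the other strand) and 2 GATA cores, none overlapping. A TATAAA also stood 31 to 26 bases before the RefSeq start of Nppb. Among the same 250-base windows of all 32851 promoters in the table, GATAA was found in 22.6%, AAGTG in 40.7%, TCACACC in 3.33%, CATTCC in 12.6% and TATAAA in 12.4%. These matches describe the letters only, and no binding was measured.

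The libraries held from about 21792500 to 42949200 counts (median 30424900), of which 15.9 to 31.1% were from the mitochondrial genome. Levels are given as CPM, each gene's count divided by its library's TMM-scaled total. Xist was at 233 CPM or more in 31 libraries and at 2.34 or less in 32, and each strain had both kinds. Library WSB_1 stood apart: its summed level of 6 cardiomyocyte markers was 25775 CPM, against a WSB median of 56906. Among them Myh6 (13803 CPM) and Ryr2 (1013 CPM) were the lowest of WSB, but Tnnt2 (4978 CPM) was the highest. Its 4 ventricular markers summed to 9196 CPM against a WSB median of 6244, so heart muscle markers did not fall together. Its 7 endothelial markers summed to 1217 CPM against a median of 776. Libraries Cast_1, Cast_5 and Cast_6 had low sums of 7 fibroblast markers, at 537, 497 and 468 CPM against a Cast median of 769, and were also the 3 Cast libraries with the highest Corin. Results that rest on these libraries are given with and without them. The labels do not say that the numbered libraries are separate animals, so p-values measure the spread between these libraries. In whole tissue, fewer cells of a type and less RNA per cell cannot be told apart.

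Per kilobase of exon, Nppa was the most abundant of the 6 genes, at 879 CPM per kb over all libraries. Nppb followed at 137 and Corin at 51.0 CPM per kb. The receptors were lower, at 10.4 for Npr2, 5.15 for Npr3 and 4.71 for Npr1 CPM per kb. In the sections that follow a level is in CPM and a difference is a log2 difference between a strain and the unweighted mean of the other 7 strains, with its standard error (SE). Adjusted p-values are from edgeR's quasi-likelihood test with Benjamini-Hochberg adjustment over all genes tested.

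All 6 genes differed among the strains, as did 89.4% of all genes tested, so passing this test does not set them apart. The adjusted p ranged from 3.36e-13 (Npr3) to 0.0212 (Nppa). Of 48 contrasts of a gene in a strain against the other strains, 20 passed, while 41.7% of all such contrasts over all genes passed. By strain, 4 of 6 genes passed in 129 (31.2% of all genes), 3 in AJ (38.4%), 2 in B6 (32.2%), 2 in Cast (59.8%), 2 in NOD (32.4%), 2 in NZO (40.6%), 4 in PWK (53.6%) and 1 in WSB (45%). Of 168 tests between pairs of strains 81 passed, against 40.5% over all genes. With all libraries, Npr3 separated the most pairs (21 of 28) and Nppa the fewest (5 of 28), with 18 for Npr1, 15 for Npr2, 12 for Nppb and 10 for Corin. The low Corin count rests on WSB_1, and more Corin pairs passed without it. Among them were 129 against B6 (adjusted p = 0.00934, from 0.131) and B6 against NZO (0.0245, from 0.181). The contrasts share libraries, so calls in different strains are not independent.

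**Figure D1:**
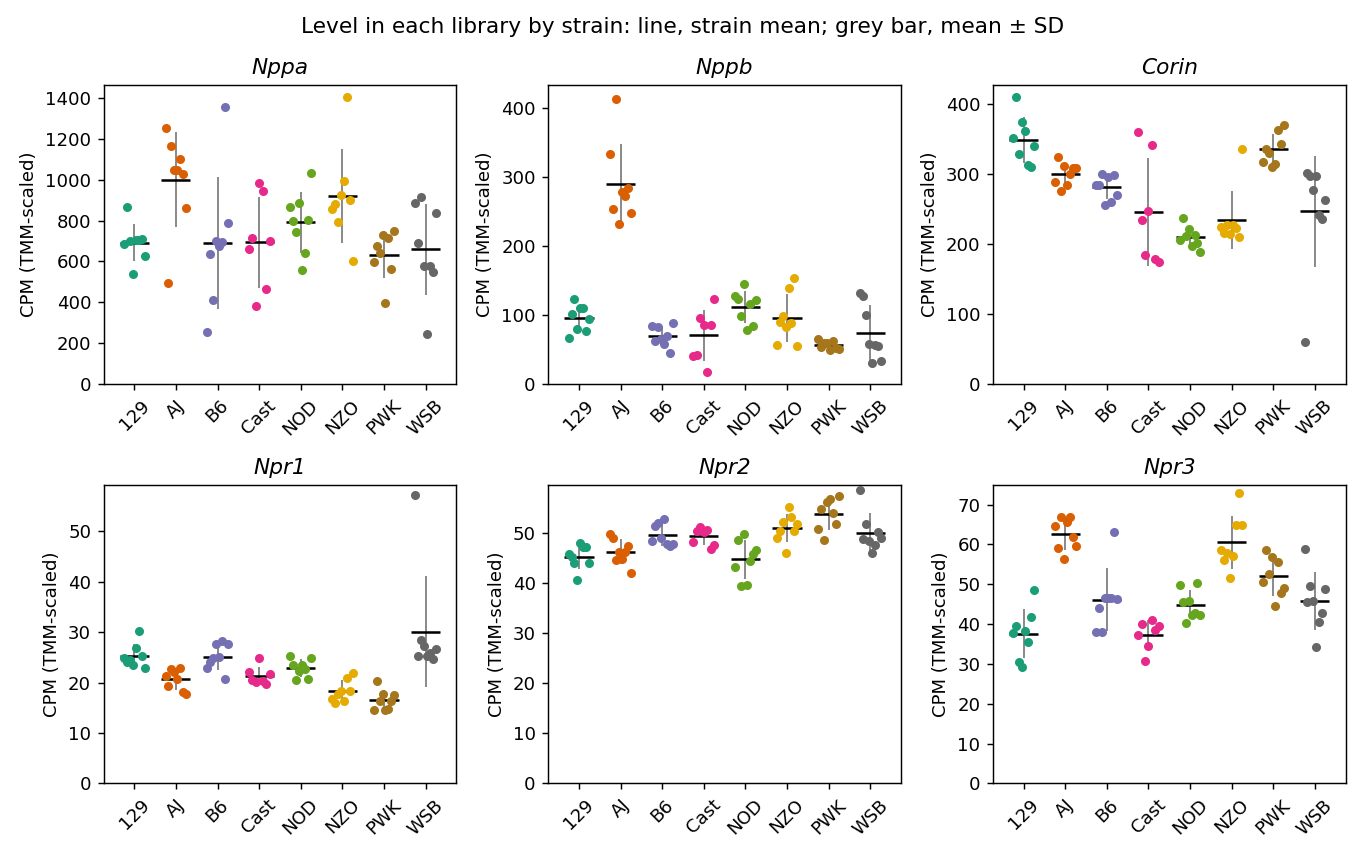
Level of each of the 6 genes (vertical axis, CPM, from 0) in each of the 63 libraries (points), grouped by strain, with the strain mean as a black line and the mean ± SD as a grey bar. The 8 AJ libraries hold the highest Nppb levels (232 to 413 CPM), and 1 WSB library stands apart for Corin (59.1 CPM) and Npr1 (57.1 CPM).

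Nppb, which encodes the B-type peptide, showed the widest strain difference of the 6 genes. AJ libraries held from 232 to 413 CPM (median 275). NOD libraries ranged from 77.2 to 144 (median 118), and NZO libraries from 54.6 to 153 (median 88.4). Every AJ library lay above every library of the other strains, a separation that 0.323% of all genes showed for AJ. The remaining strains were lower: 129 at 65.5 to 122 (median 97.8), Cast at 17.3 to 123 (median 85.6) and WSB at 30.5 to 131 (median 56.7). B6 ranged from 44.9 to 88.4 (median 66.6) and PWK from 49.4 to 64.6 (median 55.7). PWK libraries were the most alike, and their range lay inside those of B6, Cast and WSB.

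Mean Nppb was 289 ± 58.6 CPM (SD, n = 8) in AJ and 81.4 CPM over the other strains. The log2 difference was 1.86 ± 0.16 (SE), with an adjusted p of 1.15e-14. It was lower in PWK, at 56.1 ± 5.68 CPM (SD, n = 8), by a log2 difference of -0.84 ± 0.20 (adjusted p = 0.000385). Both calls held when any single library was left out. B6 (-0.50 ± 0.20, adjusted p = 0.0449) and Cast (-0.47 ± 0.21, adjusted p = 0.0455) lay just inside the threshold, and the call held in 48 of 63 fits without a single library for B6 and in 51 of 63 for Cast. Without Cast_1, Cast_5 and Cast_6, among them the 2 lowest Nppb levels in Cast, the Cast difference was -0.17 ± 0.23. The WSB difference was -0.39 with all libraries (adjusted p = 0.0975) and -0.56 ± 0.21 without WSB_1. That library held the highest Nppb of WSB (131 CPM). Leaving these libraries out raises Cast and lowers WSB by construction, so no test is drawn from either.

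In the order of mean Nppb levels, AJ stood above NOD by a log2 difference of 1.38 (95% interval 0.88 to 1.87, adjusted p = 1.99e-05). Below AJ no strain differed from its neighbour in the order NOD, NZO, 129, WSB, Cast, B6, PWK. The widest of those neighbouring gaps was 129 against WSB, at 0.36 (95% interval -0.13 to 0.85). Nppb also varied between libraries of a strain: its within-strain SD was 0.53 on the log2 scale, against a median of 0.24 over all genes tested.

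Nppa, which encodes the atrial peptide, varied more between libraries of a strain than between strains. AJ libraries ranged from 494 to 1254 CPM (median 1051) and NZO libraries from 600.0 to 1408 (median 892). NOD ranged from 560 to 1036 (median 800.3), Cast from 383 to 985 (median 701) and 129 from 540 to 870 (median 701). B6 had the widest spread, from 253 to 1358 (median 686). WSB ranged from 246 to 917 (median 635) and PWK from 397 to 748 (median 659). All strains overlapped.

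With all libraries, AJ was the only strain whose Nppa level passed the test. AJ libraries averaged 1001 ± 234 CPM (SD, n = 8), and libraries of other strains 726 CPM. The log2 difference was 0.47 ± 0.15 (adjusted p = 0.0106). NZO came next, at 920 ± 229 CPM (SD, n = 8) and 0.34 ± 0.15 (adjusted p = 0.0768). The NZO difference passed when B6_7, the highest of B6, or NZO_8, the lowest of NZO, was left out. It also passed without Cast_1, Cast_5 and Cast_6 (0.38 ± 0.15, adjusted p = 0.0425). PWK, at 633 ± 115 CPM (SD, n = 8), and WSB, at 660.1 ± 223 CPM (SD, n = 8), had the lowest means, and WSB averaged 628 ± 220 CPM (SD, n = 7) without WSB_1. The PWK difference was -0.28 ± 0.16 (adjusted p = 0.144). No strain differed from its neighbour in the order of Nppa means. The pairs that passed were AJ against B6, Cast, PWK and WSB, and NZO against PWK. Without WSB_1, 129 against AJ (adjusted p = 0.0478, from 0.0516) and NZO against WSB (0.0374, from 0.0598) passed as well. Strain accounted for 0.149 of the variance of log2 Nppa (adjusted R squared), against 0.639 for Nppb and a median of 0.443 over all genes. The test over all strains was closest to the threshold without AJ_1 (adjusted p = 0.0472).

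A gene on the opposite strand, Gm13054, overlaps Nppa, and whether counting used strand is not given in the sources used here. Its reads made up at most 0.229% of the 2 genes' summed counts in any library. The neighbouring genes named here, which start within 100 kb, showed smaller AJ differences than Nppb. Clcn6, an endosomal chloride transporter, was lower in AJ, with a difference of -0.30 ± 0.06 (adjusted p = 5.67e-05). Agtrap, an angiotensin receptor-associated protein, was higher by 0.15 ± 0.04 (adjusted p = 0.00081) and 2510039O18Rik by 0.11 ± 0.04 (adjusted p = 0.0198). Plod1 (0.13, adjusted p = 0.107), Draxin (-0.31, adjusted p = 0.573) and Gm13054 (0.41, adjusted p = 0.124) did not pass.

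Nppb amounted to 30.4 ± 9.31% of Nppa in AJ (SD, n = 8, ratio of CPM), with libraries from 22.1 to 51.4%. In the other strains the mean ratio lay between 9.12% (PWK) and 14.2% (NOD). The ranges overlapped through B6_1, which had 253 CPM of Nppa and a ratio of 33.2%, and through Cast_3, with a ratio of 25.0%. No test was run on this ratio.

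**Figure D2:**
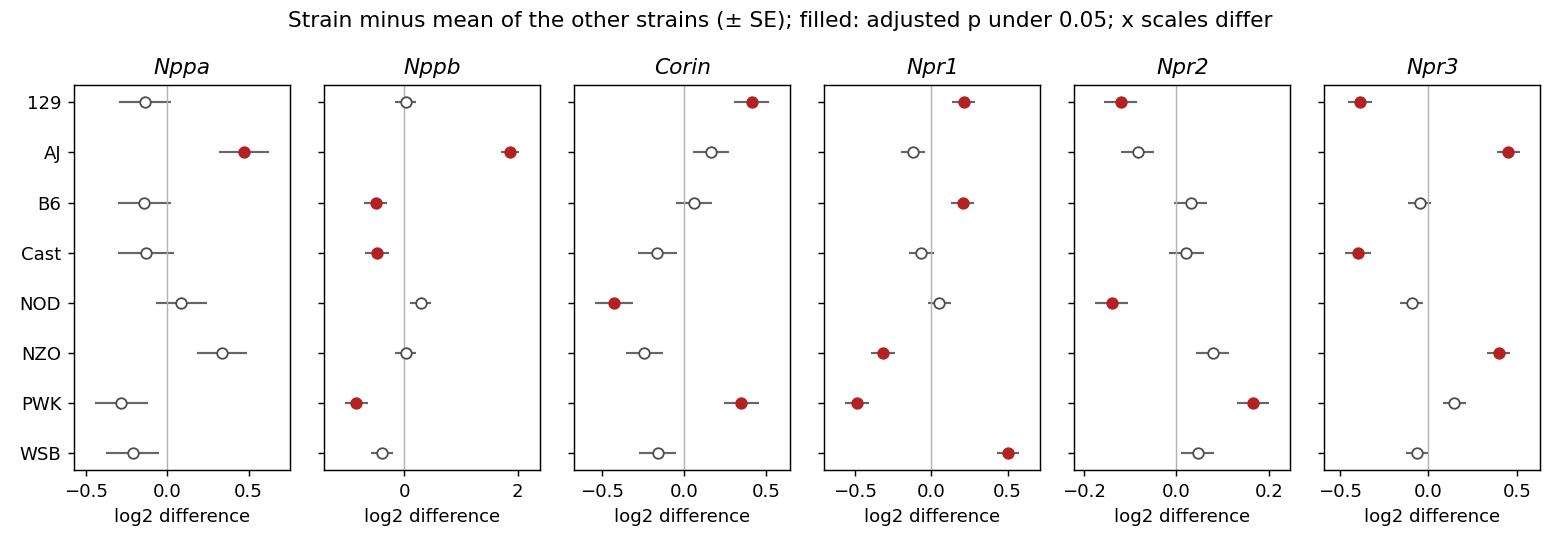
Log2 difference between each strain and the mean of the other strains (horizontal axis, scales differ between panels, bars ± SE) for the 6 genes; filled points have an adjusted p under 0.05 in edgeR's quasi-likelihood test. Nppb in AJ is the largest difference (1.86), and the differences of Npr2 stay within -0.14 and 0.17.

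Corin encodes the membrane protease that activates the atrial peptide. It was highest in 129, where libraries ranged from 311 to 410.2 CPM (median 346), and in PWK, at 310 to 370.2 CPM (median 333). NOD was lowest, at 189 to 238 CPM (median 208), and did not overlap 129, PWK, AJ or B6. AJ ranged from 276 to 324 CPM and B6 from 256 to 299.9 CPM. The log2 difference was 0.41 ± 0.11 in 129 (adjusted p = 0.00158), 0.35 ± 0.11 in PWK (adjusted p = 0.00465) and -0.43 ± 0.11 in NOD (adjusted p = 0.00247). These calls held when any single library was left out. Neighbouring strains in the order of means did not differ in any pair.

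The spread of Corin in WSB, Cast and NZO came from few libraries. WSB_1 held 59.1 CPM, while the other 7 WSB libraries ranged from 236 to 302 CPM. Cast_1 and Cast_6 held 360 and 342 CPM, and Cast_5 held 247, while the other 4 Cast libraries ranged from 174 to 234 CPM. NZO_8 held 336 CPM against 210 to 228 CPM in the other NZO libraries. Without WSB_1 the NZO difference passed (-0.26 ± 0.07, adjusted p = 0.00236, from -0.24 and 0.0817 with it), as did that of Cast (-0.18 ± 0.08, adjusted p = 0.0319). Cast averaged 246 CPM over its 7 libraries and 193 ± 27.7 CPM (SD, n = 4) without Cast_1, Cast_5 and Cast_6. Those 3 libraries hold its highest Corin levels, so leaving them out lowers Corin by construction and no test is drawn from it. All 7 fibroblast markers were lower in Cast as a strain (median difference -0.81). Of all 16425 genes 59.8% passed in Cast and 4806 were lower, with a median difference of 0.000568. The part of cell composition in the Corin values was not tested.

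Npr1 encodes the cGMP-making receptor for both heart peptides. WSB libraries ranged from 24.7 to 57.1 CPM (median 26.3), 129 from 22.8 to 30.3 (median 24.7) and B6 from 20.8 to 28.3 (median 24.9). PWK ranged from 14.5 to 20.3 CPM (median 16.4) and NZO from 15.9 to 22.0 (median 18.1). The PWK libraries all lay below all WSB, 129 and B6 libraries. The log2 difference was 0.50 ± 0.07 in WSB (adjusted p = 4.67e-08), 0.21 ± 0.08 in 129 (adjusted p = 0.0233) and 0.21 ± 0.08 in B6 (adjusted p = 0.0277). It was -0.48 ± 0.08 in PWK (adjusted p = 5.51e-07) and -0.32 ± 0.08 in NZO (adjusted p = 0.000858).

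The size of the WSB value rested on WSB_1. Without it the WSB mean was 26.2 ± 1.28 CPM (SD, n = 7) in place of 30.1 with it, and the difference was 0.30 ± 0.05 (adjusted p = 2.78e-06). WSB_1 was also the library with a high endothelial sum and a low sum of the 6 cardiomyocyte markers, but a high ventricular sum. Its mesothelial (113 CPM against a WSB median of 39.6), red cell (4034 against 1561) and adipocyte sums (50.3 against 4.81) were high too. Its smooth muscle and pericyte sum was low (1171 CPM against a WSB median of 1423). The part of these differences in its Npr1 level was not tested. In the order of means WSB stood above 129 (0.25, 95% interval 0.06 to 0.45, adjusted p = 0.0442), but without WSB_1 that pair no longer passed (129 minus WSB -0.05, 95% interval -0.19 to 0.08, adjusted p = 0.599). No other neighbours differed with all libraries, and AJ against NZO passed without WSB_1 (0.17, adjusted p = 0.0422). The calls in 129 and B6 ended when 129_6 or 129_7, and B6_4, B6_6 or B6_8, were left out.

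Npr2, the receptor gene for the C-type peptide, was the steadiest of the 6. Its strain means lay between 44.7 ± 3.83 CPM in NOD (SD, n = 8) and 53.8 ± 3.13 in PWK (SD, n = 8). Its within-strain SD was 0.087 on the log2 scale. PWK libraries ranged from 48.6 to 57.4 CPM and NOD libraries from 39.4 to 49.9, so even the extreme strains overlapped slightly. Small differences passed the test: 0.17 ± 0.04 in PWK (adjusted p = 5.17e-05), -0.14 ± 0.04 in NOD (adjusted p = 0.00159) and -0.12 ± 0.04 in 129 (adjusted p = 0.00695). No neighbours in the order of means differed. Its ligand gene Nppc was in the table but was too low to be tested.

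Npr3 encodes the clearance receptor. AJ libraries ranged from 56.3 to 66.9 CPM (median 63.2) and NZO libraries from 51.6 to 72.8 (median 58.2). At the other end 129 ranged from 29.2 to 48.5 CPM (median 38.0) and Cast from 30.8 to 41.0 (median 38.5). AJ and NZO did not overlap 129 or Cast. The log2 difference was 0.45 ± 0.06 in AJ (adjusted p = 1.60e-08), 0.40 ± 0.06 in NZO (adjusted p = 4.48e-07), -0.39 ± 0.07 in 129 (adjusted p = 4.26e-06) and -0.40 ± 0.07 in Cast (adjusted p = 2.81e-06). All 4 calls held when any single library was left out. PWK (0.15 ± 0.06, adjusted p = 0.0506) lay just outside the threshold. The order of means fell into AJ and NZO, then PWK, B6, WSB and NOD, then 129 and Cast: NZO differed from PWK (adjusted p = 0.0276) and NOD from 129 (adjusted p = 0.0206), while neighbours inside these sets did not differ. The middle set was not uniform, as its ends differed (NOD minus PWK -0.21, adjusted p = 0.0366). PWK against WSB passed without WSB_1 (0.24, adjusted p = 0.0129) but not with it (adjusted p = 0.0711).

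The clearance receptor gene was set against the signalling receptor gene as a ratio. Npr3 was 332 ± 37.0% of Npr1 in NZO, 316 ± 32.5% in PWK and 305 ± 27.4% in AJ (SD, n = 8 each, ratio of CPM). In the other strains the mean ratio ran from 150.1% in 129 to 197% in NOD. Libraries of NZO, PWK and AJ started at 254%, and outside them only B6_7, at 304%, was higher than that. These ratios are descriptions of the values above and were not tested.

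**Figure D3:**
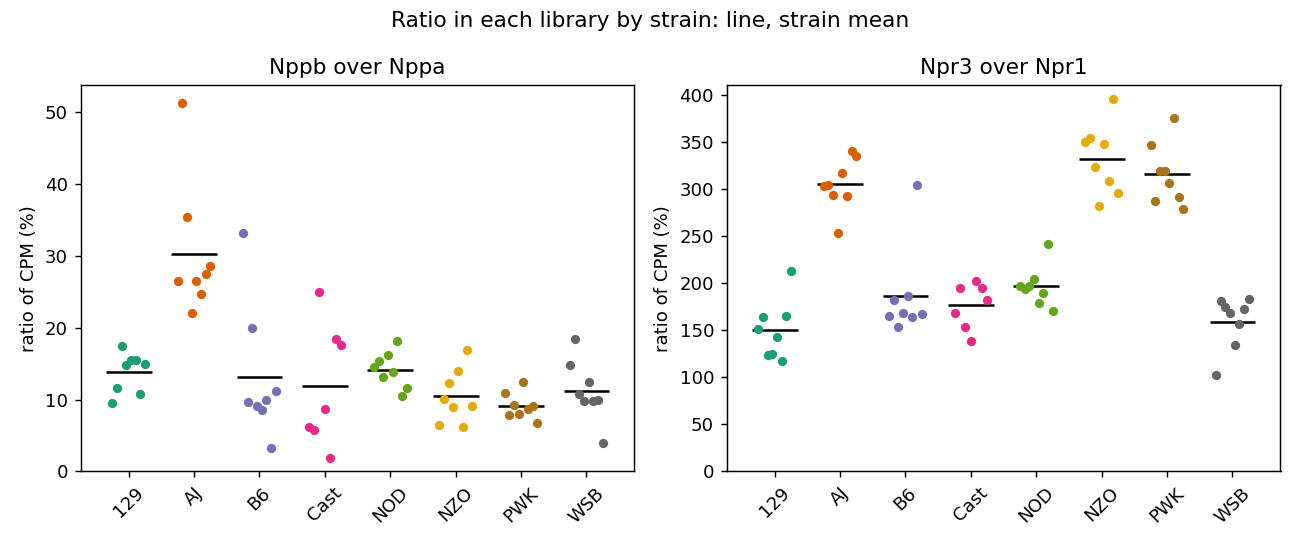
Ratio of Nppb to Nppa (left) and of Npr3 to Npr1 (right) in each library (points, % of CPM, axes from 0) by strain, with strain means as lines. AJ has the highest mean Nppb to Nppa ratio (30.4%), and NZO, PWK and AJ have mean Npr3 to Npr1 ratios of 305% or more.

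Between libraries of the same strain, Nppa followed markers of atrial muscle. The atrial marker level was the mean log2 CPM of Myl7, Myl4 (atrial myosin light chains), Sln (sarcolipin) and Bmp10, a growth factor of the right atrium. All of these markers were detected in every strain, and the 9 atrial markers listed summed to 383 to 1358 CPM in B6 and 401 to 970 CPM in WSB. In a fit with a term per strain, Nppa rose by 0.68 ± 0.07 log2 units (SE) per unit of marker level (adjusted p = 1.61e-11). Npr3 rose by 0.17 ± 0.04 (adjusted p = 0.0306). A positive slope passed the test for 0.353% of all genes (58 genes), and a negative slope for none of them.

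Nppa had the third smallest p of all genes in this fit, after Dkk3 and Myl4. Dkk3, which was on the atrial list but not in the marker level, had a slope of 0.59 ± 0.05 (adjusted p = 1.12e-12), and Myl4 itself 0.61 ± 0.06. Among the other listed markers outside the level, Stard10 passed (0.38, adjusted p = 8.75e-10). Kcnj3 (0.18, adjusted p = 0.335), Nr2f2 (0.13, adjusted p = 0.684) and Kcna5 (-0.035, adjusted p = 0.9996) did not. The slope of Nppb was 0.03 ± 0.13 (95% interval -0.21 to 0.28) and did not pass. The slopes of Npr1 (0.07 ± 0.05), Npr2 (0.01 ± 0.02) and Corin (-0.05 ± 0.08) did not pass either. B6_1 had the lowest marker level, with Bmp10 at 0.2 CPM, and without it the Nppa slope was 1.05 ± 0.09 (adjusted p = 2.43e-14) and the Npr3 slope 0.26 ± 0.06 (adjusted p = 0.0172), while that of Nppb was 0.26 (95% interval -0.15 to 0.66).

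The libraries with the lowest Nppa had low atrial marker sums. In AJ_2 Nppa was 494 CPM and the 4 markers summed to 328 CPM, while the other AJ libraries ranged from 863 to 1254 CPM for Nppa and from 557 to 783 CPM for the sum. WSB_6 had 246 CPM of Nppa and a sum of 238 CPM, and B6_1 had 253 and 202 CPM. At the other end B6_7 had 1358 CPM of Nppa and a sum of 1000 CPM. Nppb in these 4 libraries (254, 30.5, 84.1 and 44.9 CPM) did not follow that order.

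With the marker level as a covariate, the AJ difference of Nppa was 0.35 ± 0.09 (adjusted p = 0.0018), and that of Nppb 1.86 ± 0.17 (adjusted p = 4.48e-14). The NZO difference of Nppa was 0.10 ± 0.10 (adjusted p = 0.445) in that fit. PWK passed for Nppa, at -0.25 ± 0.10 (adjusted p = 0.0238). Cast changed direction, from -0.13 ± 0.17 (adjusted p = 0.53) to 0.27 ± 0.10 (adjusted p = 0.0201). Cast also had 4 of 9 atrial markers lower than the other strains, and 1 higher. Of all 16425 genes 59.8% passed in Cast, with 4806 lower and 5021 higher. What share of each heart was atrium is not in the labels, and the marker level also carries strain differences in the marker genes themselves.

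**Figure D4:**
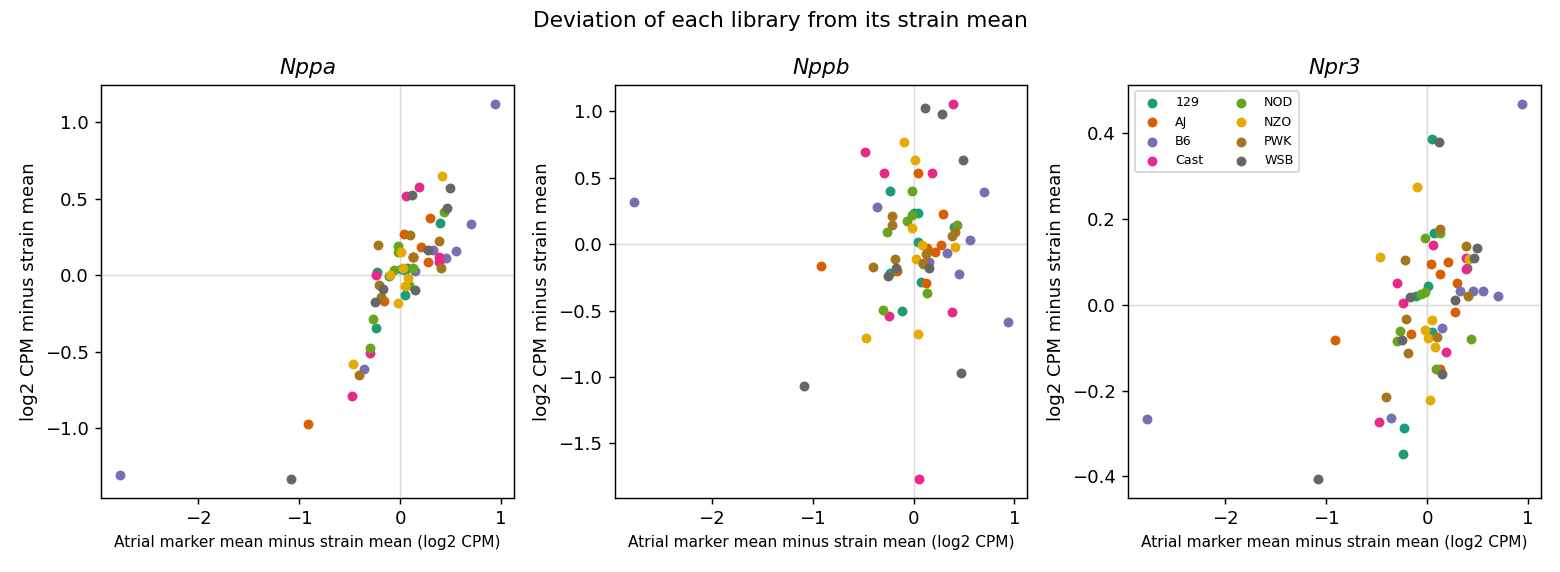
Log2 CPM of Nppa, Nppb and Npr3 (vertical axes) against the mean log2 CPM of 4 atrial markers (horizontal axes), each as the deviation of a library from its strain mean; points are the 63 libraries, coloured by strain. Nppa rises with the markers (r = 0.83), Npr3 less closely (r = 0.50), and Nppb shows no clear relation (r = 0.04).

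Among 21 relations between the genes and the atrial marker level, taken within strains over 63 libraries, 5 passed by Pearson r in a two-sided permutation test of libraries within strains after Benjamini-Hochberg adjustment. Nppa followed the atrial markers with r = 0.83 and rho = 0.79 (p = 1e-05, the smallest the 100000 resamples allow, adjusted p = 0.000105). The relation was positive in 8 of 8 strains, with r from 0.65 to 0.96, and without the 2 libraries farthest from the median it was 0.83. Nppa and Npr3 rose together (r = 0.62, rho = 0.55, adjusted p = 0.000105), in 7 of 8 strains, and without the 2 farthest libraries r was 0.47. Npr3 followed the atrial markers with r = 0.50 and rho = 0.46 (p = 0.00067, adjusted p = 0.00469), and with r = 0.44 without the 2 farthest.

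The relation between the peptide genes did not pass within strains. Nppa and Nppb gave r = 0.09 and rho = 0.20 (p = 0.595), with r from -0.71 in B6 to 0.63 in NOD. Nppb and Corin moved in opposite directions (r = -0.49, rho = -0.38, p = 0.00378, adjusted p = 0.0198), in 7 of 8 strains. That relation no longer passed without the 2 farthest libraries (r = -0.46, adjusted p = 0.0795), and r was -0.24 without WSB_1, Cast_1, Cast_5 and Cast_6. Npr1 and Npr2 gave r = 0.41 and rho = 0.26 (p = 0.0076, adjusted p = 0.0319), and r = 0.21 without WSB_1. Those 2 relations rest on few libraries. By rho the second of them did not pass (adjusted p = 0.104), while Nppa and Npr1 passed by rho (0.39, permutation p = 0.00159, adjusted p = 0.00835, and 0.41 without WSB_1, adjusted p = 0.00882) but not by r (0.28, adjusted p = 0.17).

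The genes whose within-strain pattern was most like each member were ranked by Pearson r over the 63 libraries, without a test. For Nppa they were Dkk3 (r = 0.87), Mybphl (0.87), Sln (0.86), Myl4 (0.85) and Myl7 (0.81), of which 4 were on the atrial list. For Nppb they were Tnfrsf12a, the receptor of the cytokine TWEAK (0.80), Timm10 (0.72), Adamtsl5 (0.70), Myo9b (0.67) and Pmepa1 (0.67). The list for Npr3 was Gpm6a (0.64), Cyp2s1 (0.62), Nppa (0.62), Aebp1 (0.62) and the mesothelial marker Upk3b (0.61). For Npr2 the genes were Dennd3 (0.67), Coro6 (0.64), Dock6 (0.60), Slc9a3r2 (0.59) and Klc1 (0.59).

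Leaving out WSB_1 changed these lists. The Nppa list exchanged Myl7 for Pam. The Nppb list kept Tnfrsf12a, Timm10 and Adamtsl5, with Enah and Flnc in place of the others. The Npr3 list kept Gpm6a and Nppa and took in Gnao1, Podn and Gprc5b, and the Npr2 list kept Dennd3 and Coro6 and took in Lonp1, Nup133 and Nucb1. The lists of Npr1 and Corin changed entirely. With all libraries Npr1 was most like Ccnl2, Kctd10, Pkn3 and Pecam1 (r from 0.73 to 0.74). Without WSB_1 its list was Cldn15, Smpd3, Igfbp4, Gpc3 and Aebp1 (r from 0.51 to 0.58). Corin was most like Tor1aip1, Acss1, Tmem106b, the insulin receptor gene Insr and Txlnb (r from 0.89 to 0.91), and without WSB_1 most like Plin4, Pcnt, Itm2b, Map7 and Ppp1r12c (r from 0.78 to 0.82). No gene named for either member was in both of its lists, with and without WSB_1. Without Cast_1, Cast_5 and Cast_6 as well, the Corin list was Dsg2, Pcnt, Tmtc1, St3gal1 and Plin4 (r from 0.65 to 0.69). The Nppb list then kept Tnfrsf12a and Enah and took in Synpo2l, Rrp12 and Pfkp (r from 0.68 to 0.77).

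Over the 8 strain means, Nppa was most like Pttg1ip (r = 0.98), the skeletal actin gene Acta1 (0.97), Erf (0.97), Abcc3 (0.96) and Met (0.95). For Nppb the order was Tollip (0.96), Baiap2l1 (0.95), Msrb3 (0.95), Klf16 (0.94) and Srl (0.93). Corin was most like Epb41l4a, Bahd1, Mepce and Arhgap6 (r from 0.92 to 0.95). Npr1 was most like Pan2, Zmym1, Taf10, Cdk5 and Cntnap1 (0.95 to 0.98), Npr2 most like Pias2, Sel1l, Wdfy3, Lyrm7 and Smap1 (0.92 to 0.98), and Npr3 most like Pafah1b2, Slc50a1, Nr4a2 and C1ra (0.92 to 0.96). Each of these values rests on 8 points and was the highest among 11031 genes compared, and the lists are descriptions.

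Among enzymes that process or break down the peptides, all 5 genes tested of 8 listed differed among strains, where 89.4% of all genes did. Pcsk6, a protease that activates corin, ranged from 36.5 CPM in Cast to 83.8 in NZO, and was higher in AJ by 0.37 ± 0.09 (adjusted p = 0.000728). Furin, which cuts the precursor of the B-type peptide, ranged from 82.5 ± 4.11 CPM in AJ (SD, n = 8), where it was lower (-0.43 ± 0.09, adjusted p = 0.000124), to 175 ± 58.6 CPM in Cast (SD, n = 7). Dpp4, a peptidase that trims the B-type peptide, ranged from 4.11 CPM in Cast to 9.20 in NOD. Mme (neprilysin), named after its values were seen, was also lower in AJ (-0.54 ± 0.12, adjusted p = 0.00018). In AJ 2 of these 5 genes were higher and 2 lower, with a median difference of -0.05, against 3381 higher and 2933 lower of 16425 genes and a median of 0.000578.

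Downstream of the receptors, all 11 tested genes of cGMP synthesis, breakdown and kinases (of 12 listed) differed among strains, a share to be read against the 89.4% of all genes. Pde1c, a phosphodiesterase, ranged from 31.7 CPM in WSB to 155 in Cast, where it was higher by 1.65. Prkg1, the main cGMP-dependent kinase of heart and vessel, ranged from 7.44 CPM in WSB to 18.0 in Cast. Prkg2, its low-level relative, ranged from 0.197 CPM in WSB to 0.807 in PWK. All 7 tested kinase targets (of 8 listed) differed too, against the same 89.4%: Rgs2, which ends signalling of Gq-coupled receptors, ranged from 18.1 CPM in Cast to 50.4 in 129. Mrvi1, a kinase substrate at the calcium store, ranged from 15.5 CPM in Cast to 27.1 in NZO, and the channel gene Trpc6 from 0.0841 CPM in NOD to 0.302 in PWK. In AJ 2 of 11 genes of the first list were higher and 2 lower (median 0.11), and 2 of 7 targets were higher and 1 lower (median 0.16), where 38.4% of all genes passed.

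Of 14 tested transcription factors known to act on Nppa or Nppb (15 listed), 11 differed among strains, no higher a share than the 89.4% of all genes. Hand2 ranged from 35.8 CPM in NOD to 78.4 in PWK, Tbx2 from 3.28 CPM in PWK to 5.91 in NZO, and Gata4 from 72.8 CPM in Cast to 108 in NZO. In AJ 1 factor was higher and 4 were lower, with a median difference of -0.13, where 38.4% of all genes passed in either direction. The higher factor was Srf, at 99.4 CPM (0.28 ± 0.06, adjusted p = 0.000323), which was named after its values were seen.

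Genes of wall stress and the fetal programme differed among strains for 9 of 10, where 89.4% of all genes did. Acta1, an actin gene of skeletal muscle and fetal heart, was highest in NZO, at 1825 CPM, and reached 1628 ± 345 CPM (SD, n = 8) in AJ, where its difference was 2.17 ± 0.15 (adjusted p = 2.57e-18). B6 was lowest, at 126 CPM. Myh7, the slow myosin heavy chain gene, had another order, from 124 CPM in WSB to 2666 in Cast, and was lower in AJ (-1.27 ± 0.28, adjusted p = 0.000179). Postn, a matrix gene of activated fibroblasts, ranged from 12.6 CPM in Cast to 73.6 in NZO and was higher in AJ (0.61 ± 0.11, adjusted p = 5.43e-06). In AJ 5 of these 10 genes were higher and 1 lower, with a median difference of 0.39, against 38.4% of all genes in either direction and a median of 0.000578. The other higher genes, named after their values were seen, were Ankrd1 (0.86), Ctgf (0.56) and Gdf15 (0.67). In PWK, where Nppb was lowest, 3 were higher and 2 lower (median -0.12), against 53.6% of all genes in either direction and a median of -0.00509. Higher genes were not particular to AJ: in NOD 6 were higher and 0 lower (median 0.45), and in NZO 4 and 0 (median 0.28). Of all genes 32.4% passed in NOD and 40.6% in NZO, and Nppb passed in neither (adjusted p = 0.239 and 0.925). B6, 129, Cast and WSB held more lower than higher genes: 6 against 1, 3 against 2, 4 against 3 and 5 against 0. Of all genes 32.2, 31.2, 59.8 and 45% passed there.

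Markers of cell types are given for AJ against the same background of 38.4% of all genes. None of the 9 atrial markers was higher in AJ and 1, Nr2f2, was lower (-0.21). Their sum had a median of 919 CPM, within the range of strain medians from 700.3 in Cast to 992 in NZO. Of 6 general cardiomyocyte markers 1 was higher, the troponin gene Tnnt2 (0.18 ± 0.05, adjusted p = 0.00196), and 2 were lower. These were Actc1, the cardiac actin gene (-0.89 ± 0.10, adjusted p = 2.88e-11), and Ryr2, the calcium release channel gene (-0.34 ± 0.10, adjusted p = 0.00523). None of the 4 ventricular or 7 fibroblast markers passed in AJ. Of the 7 endothelial markers 2 were lower (Cdh5 and Emcn), as was 1 of 3 endocardial markers (Cytl1, -0.41).

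Of 8 smooth muscle and pericyte markers 3 were higher in AJ (Acta2, Rgs5 and Abcc9), with Acta2 at 387 CPM in AJ against 71.2 CPM in NZO. Of 6 adipocyte markers 2 were higher (Lep and Retn). Among 5 mesothelial markers 1 was higher (Upk3b, 0.45), among 6 macrophage markers 1 was higher (Cd68, 0.60), and among 5 red cell markers 1 was higher and 1 lower. The 2 red cell genes were Hba-a2 and Hba-a1, near-identical copies between which counting could split reads. The marker genes singled out here were named after their values were seen. The part of cell composition in the AJ values of Nppb was not tested beyond the atrial covariate.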

How the data were processed

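Heart RNA of 63 libraries from 8 strains was measured by RNA-seq. Per the labels' protocols, polyA RNA was taken from frozen, pulverised tissue. The authors deposited estimated counts per gene (not normalised) and a variance-stabilised log2 table. The submitters' processing notes name DESeq2 and GRCm38. Which aligner and counter were run, and whether by strand, is not stated in these sources. Loss of reads over strain variants was not tested.

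Counts were rounded and genes filtered with filterByExpr (minimum count 10). The fit used TMM scaling and edgeR 4.0.16 quasi-likelihood tests (R 4.3.3) with all 63 libraries in 1 model, tested on simulated data. The threshold was an adjusted p of 0.05 (Benjamini-Hochberg, all 16425 genes tested). Log2 CPM used a prior count of 2. Alternatives were DESeq2 1.42.0, limma 3.58.1, other scalings and filters, covariates, a replicate block, B6 as the reference and left-out libraries. In no strain were 2 libraries alike within sampling noise.

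The 6 genes were always named. From each list came up to 3 genes, those whose strain means spanned most among genes past the test over all strains, besides Myl7, Myl4, Sln and Bmp10. Likeness was ranked over genes whose mean log2 CPM reached 1, and neighbours started within 100 kb. The genes and lists were chosen with earlier results of these data known. Some genes that these rules name are not reported here.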

Additional observations from a re-analysis of the deposited data

Results flagged for a closer look

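Of 48 groups (6 genes in 8 strains), 7 held a library far from the rest of its strain by Dixon's test, and chance flags about 1 in 20 groups. For Nppa these were AJ_2 (494 CPM), PWK_5 (397 CPM) and WSB_6 (246 CPM), all low, and each had the lowest sum of Myl7, Myl4, Sln and Bmp10 in its strain (328 CPM in AJ_2 and 238 CPM in WSB_6). For Npr1 it was WSB_1 (57.1 CPM, high), which was also the low library for Corin (59.1 CPM). Npr3 was high in B6_7 (63.1 CPM), the B6 library with the highest Nppa and atrial marker sum. Corin was high in NZO_8 (336 CPM), which had the lowest Nppb (54.6 CPM) of NZO.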

How the results depend on the processing

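All 6 genes passed the test over all strains under every alternative tried, and the 20 calls of a gene in a strain became 19 to 22 under the other scalings, filters, tests and covariates, 15 with B6 alone as the reference for the other 7 strains, and 18 to 26 without any single library. Without WSB_1, Cast_1, Cast_5 and Cast_6 together, chosen after seeing the data, there were 27 calls. Corin in Cast was lowered by leaving out its 3 highest libraries, but it also passed without WSB_1 alone (-0.18, adjusted p = 0.0319). The Nppb call in WSB came with its highest library left out. That call also came without Cast_1, Cast_5 and Cast_6 but with WSB_1 kept (-0.44, adjusted p = 0.0350). Of the 21 within-strain relations 5 passed, and 3 without WSB_1 or without those 4 libraries. Nppa in Cast turned from -0.13 to 0.27 with the atrial marker covariate. Leaving out single libraries other than WSB_1, and B6_1 for the slopes, was also added after seeing the data. A fit with the replicate number as a block gave 6 genes over all strains, 20 calls by strain and 74 of 168 pairs (81 without it), and 2 slopes. Deviations of same-numbered libraries had a median correlation of 0.0968 (-0.258 to 0.439), against -0.0161 (-0.434 to 0.442) for different numbers. Same-numbered libraries were thus more alike on median, with overlapping ranges. In most strains the lower-numbered libraries had high Xist and the later ones low, so the number partly follows that split. PWK and WSB departed from this order. Whether the numbers mark a pairing or a batch was not tested. The lowest count of the 6 genes was 419 (Npr1 in NZO_2), so none was near the limit of detection.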
